A study of Mus musculus with 24 samples.

Results

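The 10 genes described here are markers of plasmacytoid dendritic cells, the specialised interferon-producing cells of the dendritic lineage. They are Tcf4, Spib, Runx2, Siglech, Ccr9, Lag3, Ly6d, Pacsin1, Cox6a2 and Klk1, and were chosen by name from the known identity genes of that cell type, 10 of 20284 named genes on the array. The choice was made with earlier results of these data known, so counts of members called below do not come from a blind list. Each was read from the probes whose transcript accession belongs to its symbol. The 10 genes had 14 probes. Siglech, Tcf4, Runx2 and Pacsin1 had 2 each, and the probe brighter on average stands for the gene and is called its main probe. All 10 had a probe above background and entered the test.

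Transcripts were measured on Agilent mouse arrays with 1 dye (Cy3) in bone marrow cells of C57BL/6 background mice that had grown for 9 days with human Flt3 ligand at 100 ng/ml, a culture that gives plasmacytoid and conventional dendritic cells side by side. The cells were Lyn/Irf5-DKO (here DKO, lacking the Src-family kinase Lyn and the transcription factor Irf5), Lyn-KO, Irf5-KO or WT. Cells of each genotype received the synthetic DNA CpG-B, oligonucleotide 1668, a ligand of Toll-like receptor 9, at 150 nM for 6 h, or were left unstimulated. Each of the 8 groups had 3 arrays, described as biological triplicates, so that there were 24 arrays in all. The alleles behind the genotypes, the age and sex of the mice and any pooling of animals are not given in the sources used here.

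Plasmacytoid dendritic cells arise when the E protein Tcf4 (also called E2-2) holds its program against Id2, which drives the conventional dendritic fate. Spib, an Ets-family factor, and Runx2, a runt-domain factor that mouse plasmacytoid dendritic cells need to leave the bone marrow, act in the same program, and surface molecules such as Siglech and Ccr9 are used to recognise the cells. The cells sense unmethylated CpG DNA through Toll-like receptor 9, and activation is known to lower several of their surface markers.

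The RNA came from the whole culture. In such bulk samples, fewer plasmacytoid cells and less RNA of a gene per cell cannot be told apart, and this holds for every value below. Levels are the log2 of the processed signal minus the 75th percentile of the array, so that 0 is the 75th percentile and 1 unit is a doubling, and they do not compare one gene with another. The share of spots well above background, controls aside, ran from 41.0% to 53.8% over the arrays, replicate arrays correlated at 0.991 to 0.996 over the probes, and no spot was saturated. Each of the 3 slides carried 1 array of every group. The Lyn probe stood lower in every Lyn-KO and DKO array than in every WT array, at -0.93, -0.87 and -0.75 in unstimulated Lyn-KO cells against 0.75, 1.13 and 1.04 in unstimulated WT cells. The single Irf5 probe does not check the Irf5 label: it read 4.42, 4.39 and 4.49 in unstimulated Irf5-KO cells against 4.67, 4.79 and 4.73 in unstimulated WT cells, and with CpG-B it was higher in Irf5-KO cells than in WT cells by 0.64 ± 0.09 (adjusted p = 2.8e-05). Which stretch of Irf5 was deleted is not stated in the sources used here, and Irf5-KO and DKO are used below as the labels give them.

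The 10 genes were measurable in all cultures. Siglech, Ly6d, Cox6a2, Spib, Tcf4 and Pacsin1 were well above background on all 24 arrays, as were Ccr9, Lag3, Klk1 and the main probe of Runx2. Markers of conventional dendritic cells were also present, with all 7 tested genes of type 1 conventional dendritic cells and all 8 of type 2 well above background on the 3 arrays of unstimulated WT cells.

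Stretches of 250 bases just before the gene start are shown for 4 members. Spib was taken because it correlated with Tcf4 over the 24 arrays (Pearson r = 0.901, and 0.555 over the 12 unstimulated ones). Unlike Tcf4, it did not rise with CpG-B in Irf5-KO cells. Ccr9 and Klk1 were taken because they differed most between Irf5-KO and WT cells with CpG-B, and Siglech as a widely used marker of these cells in the mouse. Capitals mark E-boxes, the CANNTG motif that E proteins such as Tcf4 bind, which reads the same on both strands. The sequences are from RefSeq (GRCm38.p6) and run 5′ to 3′ along the gene, and the table held 6 of the 10 members.
Siglech: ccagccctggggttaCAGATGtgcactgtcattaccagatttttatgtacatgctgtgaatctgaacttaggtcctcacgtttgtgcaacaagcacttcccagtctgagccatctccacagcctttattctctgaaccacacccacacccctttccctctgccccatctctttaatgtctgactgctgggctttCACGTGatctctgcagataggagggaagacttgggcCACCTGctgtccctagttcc
Spib: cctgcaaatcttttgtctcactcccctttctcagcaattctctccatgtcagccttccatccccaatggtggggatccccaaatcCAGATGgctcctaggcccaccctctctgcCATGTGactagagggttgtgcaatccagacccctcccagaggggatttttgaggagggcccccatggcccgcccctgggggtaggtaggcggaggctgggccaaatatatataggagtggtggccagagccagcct
Ccr9: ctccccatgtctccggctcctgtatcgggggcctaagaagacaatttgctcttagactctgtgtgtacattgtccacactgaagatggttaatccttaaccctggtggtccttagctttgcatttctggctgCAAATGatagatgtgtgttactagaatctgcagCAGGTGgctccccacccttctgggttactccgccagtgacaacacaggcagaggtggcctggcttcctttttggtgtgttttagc
Klk1: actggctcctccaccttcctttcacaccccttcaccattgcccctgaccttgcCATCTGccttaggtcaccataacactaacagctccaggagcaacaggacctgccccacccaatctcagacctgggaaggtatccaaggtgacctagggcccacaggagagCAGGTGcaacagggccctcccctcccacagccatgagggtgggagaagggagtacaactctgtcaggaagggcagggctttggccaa
They lie at chr7:55767934-55768183 (+ strand), chr7:44532072-44532321 (− strand), chr9:123766961-123767210 (+ strand) and chr7:44225110-44225359 (+ strand). Siglech holds 3 E-boxes in this window, Spib, Ccr9 and Klk1 2 each, Runx2 1 and Pacsin1 0. An E-box was found in 66.2% of 32851 promoter windows of this length, so its presence in a member sets nothing apart. The interferon-stimulated response element, in the 10-base form with 2 free middle bases and searched on both strands, was in 2.98% of the windows and in 0 of the 6. These are letter matches and not binding sites.

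CpG-B moved the members in both directions. In WT cells, Lag3, Klk1, Tcf4, Ly6d and Spib rose, Cox6a2, Runx2 and Ccr9 fell, and Siglech and Pacsin1 did not pass the test on the probe that represents them. A change was called at an adjusted p under 0.05 (limma, Benjamini-Hochberg over all 20209 features), and errors of log2 changes are SE. In DKO cells 5 of the 10 members were called (3 higher, 2 lower, against 70.5% of all features), in Lyn-KO cells 8 (5 higher, 3 lower, against 68.9%), in Irf5-KO cells 7 (3 higher, 4 lower, against 66.8%) and in WT cells 8 (5 higher, 3 lower, against 68.5%). With most of the array called, these counts by themselves are not a result about the 10 genes. The median change of the members was -0.05 in DKO, 0.56 in Lyn-KO, -0.17 in Irf5-KO and 0.27 in WT cells on the log2 scale, beside 0.02, -0.01, -0.02 and -0.03 for all features. The signal of the 10 genes on each array is plotted by genotype and stimulation.

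**Figure D1:**
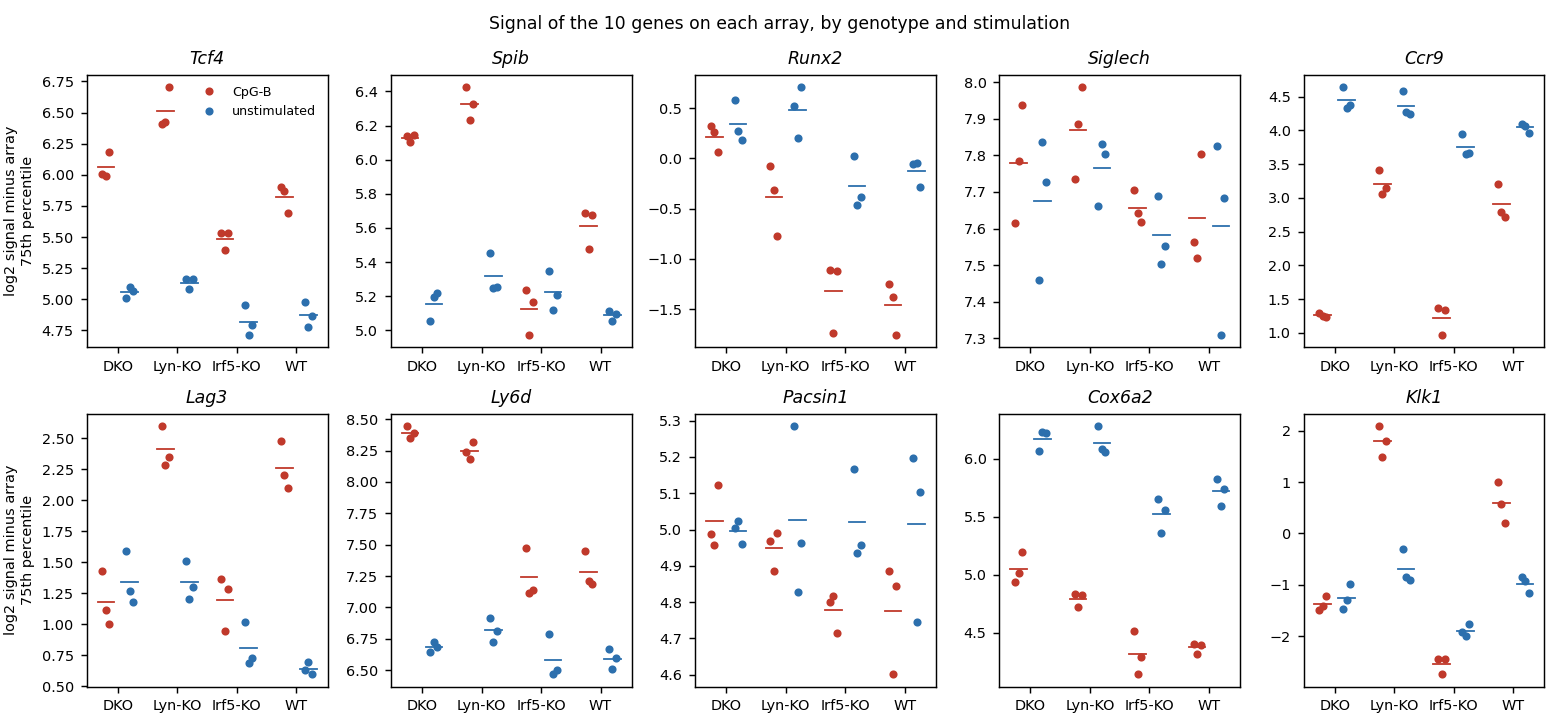
Signal of the 10 genes on each array (log2 minus the 75th percentile of the array, each panel with its own range), by genotype, with CpG-B in red left of unstimulated in blue; points are arrays and bars are means of 3. Ccr9 is lowest in DKO and Irf5-KO cells with CpG-B, and Klk1 stands above its unstimulated level in Lyn-KO and WT cells with CpG-B.

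Among the transcription factors, Tcf4 rose with CpG-B in all 4 genotypes. With CpG-B it read 6.01, 5.99 and 6.18 in DKO cells, 6.41, 6.42 and 6.71 in Lyn-KO cells, 5.53, 5.40 and 5.53 in Irf5-KO cells and 5.91, 5.87 and 5.69 in WT cells. Without stimulation it read 5.01, 5.10 and 5.06 in DKO cells, 5.16, 5.08 and 5.16 in Lyn-KO cells, 4.95, 4.71 and 4.79 in Irf5-KO cells and 4.98, 4.77 and 4.86 in WT cells. Every array with CpG-B was above every unstimulated array, whatever the genotype. The rise was 1.00 ± 0.09 in DKO, 1.38 ± 0.09 in Lyn-KO, 0.67 ± 0.09 in Irf5-KO and 0.95 ± 0.09 in WT cells on the log2 scale, a 1.93-fold change in WT (adjusted p = 9.81e-09). The second probe of Tcf4 rose as well in each genotype, by 0.50 in Irf5-KO to 1.17 in Lyn-KO cells.

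Spib rose in DKO, Lyn-KO and WT cells and did not pass the test in Irf5-KO cells. Its level with CpG-B was 6.14, 6.10 and 6.15 in DKO cells, 6.43, 6.23 and 6.33 in Lyn-KO cells, 5.24, 4.97 and 5.17 in Irf5-KO cells and 5.69, 5.48 and 5.68 in WT cells. Unstimulated, it was 5.05, 5.20 and 5.22 in DKO cells, 5.45, 5.25 and 5.25 in Lyn-KO cells, 5.35, 5.12 and 5.21 in Irf5-KO cells and 5.11, 5.05 and 5.10 in WT cells. It rose by 0.97 ± 0.08 in DKO, 1.01 ± 0.08 in Lyn-KO and 0.53 ± 0.08 in WT cells (adjusted p = 1.33e-05 in WT). In Irf5-KO cells, where the arrays of both conditions overlapped, the change was -0.10 ± 0.08 (adjusted p = 0.29). The calls for Spib move with the normalisation: with normexp background correction the rise in WT cells was 0.19 and lost its call (adjusted p = 0.0674), and the value in Irf5-KO cells was -0.35 (adjusted p = 0.00206), or -0.39 (adjusted p = 0.000403) with quantile normalisation, both called.

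Runx2 went the other way. With CpG-B it stood at 0.32, 0.26 and 0.06 in DKO cells, -0.08, -0.32 and -0.77 in Lyn-KO cells, -1.11, -1.74 and -1.12 in Irf5-KO cells and -1.25, -1.38 and -1.76 in WT cells. In unstimulated cells it stood at 0.58, 0.27 and 0.19 in DKO cells, 0.52, 0.20 and 0.71 in Lyn-KO cells, 0.03, -0.47 and -0.39 in Irf5-KO cells and -0.06, -0.04 and -0.28 in WT cells. It fell by 0.87 ± 0.20 in Lyn-KO, 1.04 ± 0.20 in Irf5-KO and 1.34 ± 0.20 in WT cells, the last a 2.52-fold drop (adjusted p = 9.58e-06), while in DKO cells the arrays overlapped and the change was -0.13 ± 0.20 (adjusted p = 0.582). The second Runx2 probe was not well above background on any array with CpG-B. It was lower with CpG-B in every genotype, by 1.55-fold in DKO, 2.34-fold in Lyn-KO, 1.64-fold in Irf5-KO and 2.20-fold in WT cells, with the dim side set to the lowest signal of any probe well above background on the array. That signal need not be the limit of this probe, so these folds are approximate lower bounds. Unstimulated, the second probe was well above background on 2 of the 3 Lyn-KO arrays and on all 3 arrays of the other genotypes. The probes thus differ for DKO cells, where the main probe gave no call, and the second probe gives no comparison between genotypes with CpG-B.

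Of the surface molecules, Ccr9, the receptor for the gut and thymus chemokine Ccl25, fell in all 4 genotypes. With CpG-B it read 1.30, 1.25 and 1.23 in DKO cells, 3.41, 3.06 and 3.14 in Lyn-KO cells, 1.36, 0.97 and 1.34 in Irf5-KO cells and 3.20, 2.79 and 2.71 in WT cells. Unstimulated, it read 4.64, 4.32 and 4.38 in DKO cells, 4.59, 4.28 and 4.24 in Lyn-KO cells, 3.95, 3.66 and 3.66 in Irf5-KO cells and 4.10, 4.06 and 3.97 in WT cells. No array with CpG-B reached an unstimulated one, and within the stimulated arrays the DKO and Irf5-KO ones lay below the Lyn-KO and WT ones. Ccr9 fell by 3.19 ± 0.14 in DKO, 1.16 ± 0.14 in Lyn-KO, 2.53 ± 0.14 in Irf5-KO and 1.14 ± 0.14 in WT cells, which is 9.14-, 2.24-, 5.78- and 2.21-fold (adjusted p = 1.97e-13 in DKO and 6.58e-07 in WT).

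Lag3, a receptor for class II histocompatibility molecules that activated T cells also carry, rose with CpG-B in Lyn-KO and WT cells. Its level with CpG-B was 1.43, 1.11 and 1.00 in DKO cells, 2.60, 2.29 and 2.35 in Lyn-KO cells, 1.36, 0.95 and 1.28 in Irf5-KO cells and 2.48, 2.21 and 2.10 in WT cells. Unstimulated, it was 1.59, 1.27 and 1.18 in DKO cells, 1.51, 1.20 and 1.30 in Lyn-KO cells, 1.02, 0.68 and 0.73 in Irf5-KO cells and 0.63, 0.69 and 0.60 in WT cells. The stimulated Lyn-KO and WT arrays lay above all the others, and the DKO arrays of both conditions overlapped. The change was -0.16 ± 0.15 in DKO (adjusted p = 0.334), 1.07 ± 0.15 in Lyn-KO (adjusted p = 2.31e-06), 0.39 ± 0.15 in Irf5-KO (adjusted p = 0.0248) and 1.62 ± 0.15 in WT cells (adjusted p = 8.21e-09). The call in Irf5-KO cells was lost without replicate 1 or 3 with CpG-B (0.30 and 0.35, adjusted p = 0.109 and 0.0781) or without unstimulated replicate 2 or 3 (0.33 and 0.35, adjusted p = 0.093 and 0.0784). It was also lost with no filter on dim probes and with only the groups compared (adjusted p = 0.0532 and 0.05003).

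Ly6d, a lipid-anchored surface protein of early lymphoid progenitors and plasmacytoid dendritic cells, rose in every genotype. With CpG-B it read 8.44, 8.35 and 8.39 in DKO cells, 8.24, 8.18 and 8.32 in Lyn-KO cells, 7.47, 7.12 and 7.14 in Irf5-KO cells and 7.45, 7.21 and 7.18 in WT cells. Unstimulated, it read 6.64, 6.72 and 6.69 in DKO cells, 6.92, 6.72 and 6.82 in Lyn-KO cells, 6.79, 6.47 and 6.50 in Irf5-KO cells and 6.67, 6.51 and 6.59 in WT cells. The DKO and Lyn-KO arrays with CpG-B lay above all other arrays. The rise was 1.71 ± 0.10 in DKO, 1.43 ± 0.10 in Lyn-KO, 0.66 ± 0.10 in Irf5-KO and 0.69 ± 0.10 in WT cells, a 3.28-fold change in DKO (adjusted p = 1.03e-11) and 1.61-fold in WT (adjusted p = 4.34e-06).

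Cox6a2, the muscle-type isoform of a cytochrome c oxidase subunit, fell in each genotype. Its level with CpG-B was 4.94, 5.02 and 5.19 in DKO cells, 4.84, 4.72 and 4.83 in Lyn-KO cells, 4.52, 4.14 and 4.29 in Irf5-KO cells and 4.40, 4.32 and 4.39 in WT cells. Unstimulated, it was 6.07, 6.23 and 6.22 in DKO cells, 6.28, 6.08 and 6.06 in Lyn-KO cells, 5.65, 5.36 and 5.56 in Irf5-KO cells and 5.83, 5.59 and 5.74 in WT cells. All arrays with CpG-B lay below all unstimulated ones. The fall was 1.12 ± 0.10 in DKO, 1.35 ± 0.10 in Lyn-KO, 1.21 ± 0.10 in Irf5-KO and 1.35 ± 0.10 in WT cells, and the difference from the WT response passed the test in none of the 3 mutants (adjusted p = 0.254 for DKO, 0.999 for Lyn-KO and 0.632 for Irf5-KO). The 95% interval of the difference was -0.07 to 0.52, -0.30 to 0.29 and -0.15 to 0.43 in the same order.

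Klk1, a tissue kallikrein of the serine protease family, had the widest range of the 10 genes. With CpG-B it read -1.49, -1.41 and -1.22 in DKO cells, 2.09, 1.50 and 1.80 in Lyn-KO cells, -2.45, -2.74 and -2.45 in Irf5-KO cells and 1.00, 0.57 and 0.21 in WT cells. Unstimulated, it read -1.47, -1.29 and -0.98 in DKO cells, -0.31, -0.84 and -0.90 in Lyn-KO cells, -1.92, -2.00 and -1.76 in Irf5-KO cells and -0.84, -0.92 and -1.17 in WT cells. The stimulated Lyn-KO and WT arrays lay above all the others and the stimulated Irf5-KO arrays below all the others, while the DKO arrays of both conditions overlapped. It rose 5.58-fold in Lyn-KO cells (2.48 ± 0.20 on the log2 scale, adjusted p = 1.22e-09) and 2.97-fold in WT cells (1.57 ± 0.20, adjusted p = 7.81e-07), fell by 0.66 ± 0.20 in Irf5-KO cells (adjusted p = 0.00623) and changed by -0.13 ± 0.20 in DKO cells (adjusted p = 0.578). Klk1 has close copies in the mouse genome, and the genes whose pattern over the 24 arrays was most like it were the copies Klk1b3 (Pearson r = 0.995), Klk1b5 (0.994) and Klk1b4 (0.986). Whether the Klk1 probe separates these transcripts is uncertain.

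Siglech, a sialic acid-binding lectin that signals through Dap12, and Pacsin1, a membrane-bending adaptor with a known part in interferon production by human and mouse plasmacytoid dendritic cells, each had 2 probes that gave different sizes of change with CpG-B. The main probe of Siglech read between 7.31 and 7.99 over the 24 arrays. It changed by 0.10 ± 0.12 in DKO, 0.10 ± 0.12 in Lyn-KO, 0.07 ± 0.12 in Irf5-KO and 0.02 ± 0.12 in WT cells (adjusted p = 0.882 in WT, 95% interval -0.24 to 0.28). Its second probe read 5.55, 5.24 and 5.28 in DKO cells, 5.13, 4.92 and 4.99 in Lyn-KO cells, 4.70, 4.14 and 4.29 in Irf5-KO cells and 4.33, 4.22 and 4.32 in WT cells with CpG-B. Without stimulation this probe read 6.52, 6.28 and 6.39 in DKO cells, 6.47, 6.28 and 6.26 in Lyn-KO cells, 6.06, 5.68 and 5.79 in Irf5-KO cells and 5.93, 5.86 and 5.77 in WT cells. On the second probe every stimulated array lay below every unstimulated one, and Siglech fell by 1.04 ± 0.13 in DKO, 1.32 ± 0.13 in Lyn-KO, 1.46 ± 0.13 in Irf5-KO and 1.56 ± 0.13 in WT cells (adjusted p = 1.91e-09 in WT). Both probes carry the same transcript accession.

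For Pacsin1 the main probe changed by 0.03 ± 0.12 in DKO, -0.08 ± 0.12 in Lyn-KO, -0.24 ± 0.12 in Irf5-KO and -0.24 ± 0.12 in WT cells with CpG-B, with no call (adjusted p = 0.0746 in WT, 95% interval -0.48 to 0.00). With the slide as a block the changes in Irf5-KO and WT cells were called (adjusted p = 0.0308 and 0.0326), and without unstimulated WT replicate 2 the value in WT cells was -0.37 (adjusted p = 0.0063). The main probe depends on the normalisation: with normexp it was called lower in all 4 genotypes, at -0.31 in DKO, -0.29 in Lyn-KO, -0.50 in Irf5-KO and -0.41 in WT cells, and with quantile normalisation likewise, at -0.31, -0.31, -0.50 and -0.44 (adjusted p from 0.000267 to 0.0256 over these 8 values). The second probe, of another Pacsin1 transcript accession, read 1.62, 1.45 and 1.56 in DKO cells, 0.91, 0.57 and 0.70 in Lyn-KO cells, 0.91, 0.51 and 0.70 in Irf5-KO cells and 0.43, 0.07 and 0.25 in WT cells with CpG-B. Unstimulated, it read 2.26, 2.01 and 2.03 in DKO cells, 2.20, 1.96 and 1.97 in Lyn-KO cells, 1.57, 1.30 and 1.33 in Irf5-KO cells and 1.51, 1.48 and 1.32 in WT cells. Within each genotype all stimulated arrays lay below the unstimulated ones. This probe fell by 0.56 ± 0.12 in DKO, 1.32 ± 0.12 in Lyn-KO, 0.70 ± 0.12 in Irf5-KO and 1.19 ± 0.12 in WT cells (adjusted p = 4.65e-08 in WT). So the change of Siglech with CpG-B rests on which probe is read, and that of Pacsin1 on the probe and the normalisation. Which probe follows the transcript was not tested.

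**Figure D2:**
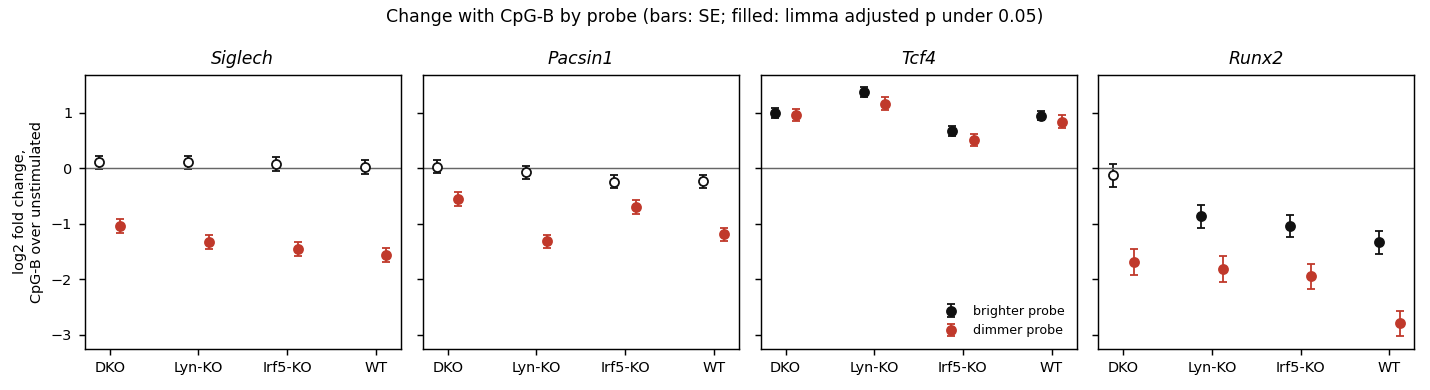
Change with CpG-B on the log2 scale for the 4 genes with 2 probes, by genotype; points are fitted changes, bars are SE, and filled points have a limma adjusted p under 0.05. The second (dimmer) probes of Siglech and Pacsin1 fall where the brighter ones are near 0 in the fit shown, both Tcf4 probes rise, and the dimmer Runx2 probe is at background with CpG-B.

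**Figure D3:**
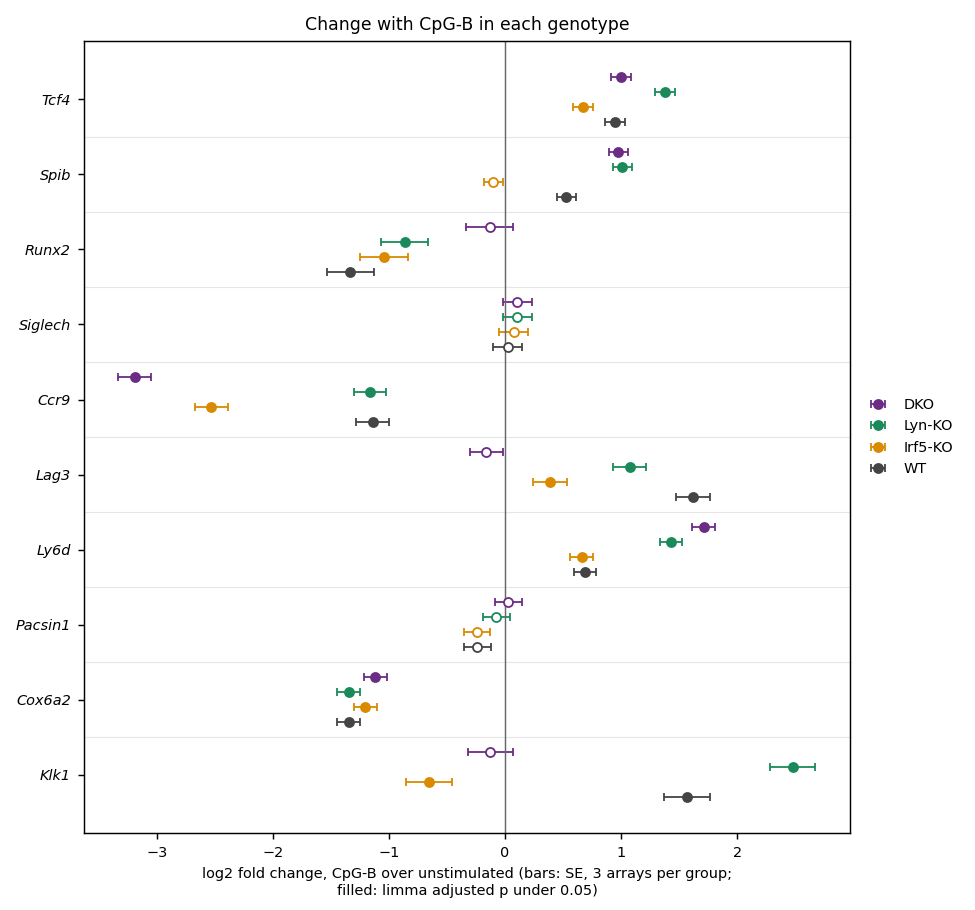
Log2 fold change with CpG-B over unstimulated for the 10 genes, 1 point per genotype (DKO, Lyn-KO, Irf5-KO and WT) with its SE from 3 arrays per group; filled points have a limma adjusted p under 0.05. Tcf4 and Ly6d rise and Cox6a2 and Ccr9 fall in all 4 genotypes, while Klk1, Lag3, Spib and Runx2 spread by genotype.

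Without stimulation few members passed the test between genotypes on their main probes. An unadjusted limma p under 0.05 was found for 5 in DKO against WT, 7 in Lyn-KO against WT and 6 in DKO against Irf5-KO cells. The second probes of Siglech and Pacsin1 are given further below. In Lyn-KO against WT cells, Lag3 and Cox6a2 were higher, and in DKO against WT cells the same 2 genes were higher. Lag3 was higher by 0.70 ± 0.15 in DKO and 0.70 ± 0.15 in Lyn-KO cells than in WT cells (adjusted p = 0.00505 and 0.00662), and every DKO and Lyn-KO array lay above every WT array. Cox6a2 was higher by 0.45 ± 0.10 and 0.42 ± 0.10 (adjusted p = 0.00772 and 0.017). The Lyn-KO call of Cox6a2 ended without unstimulated Lyn-KO replicate 1 (0.35, adjusted p = 0.0731) or WT replicate 2 (0.36, adjusted p = 0.0788). The calls were 2 of 10 against 6.78% of all features in DKO cells and 2 of 10 against 4.58% in Lyn-KO cells. With the slide as a block, Ccr9 passed as well in DKO and Lyn-KO cells (0.41 ± 0.09, adjusted p = 0.00681, and 0.33 ± 0.09, adjusted p = 0.0356), and so did Runx2 in Lyn-KO cells (0.61 ± 0.17, adjusted p = 0.0475).

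In unstimulated Irf5-KO against WT cells, Klk1 alone of the 10 was called, where 0.737% of all features were. It was 1.89-fold lower in Irf5-KO cells (log2 change -0.92 ± 0.20, adjusted p = 0.0339), with no overlap between the arrays. This call was lost without any 1 of the Irf5-KO arrays or without WT replicate 1 or 2, with the change between -0.98 and -0.85 and adjusted p between 0.0637 and 0.17. With normexp it was -0.52 and not called (adjusted p = 0.141). In DKO against Irf5-KO cells 3 members were higher, Ccr9 by 0.69 ± 0.14 (adjusted p = 0.00429), Cox6a2 by 0.65 ± 0.10 (adjusted p = 0.000286) and Lag3 by 0.54 ± 0.15 (adjusted p = 0.0359), against 5.35% of all features called. The Lag3 call was lost without DKO replicate 1 or 2 or Irf5-KO replicate 2 or 3, at changes of 0.41, 0.57, 0.47 and 0.49 (adjusted p from 0.0643 to 0.183). It was also lost with normexp, with no filter on dim probes and with only the groups compared (adjusted p = 0.0848, 0.0868 and 0.115). With the slide as a block Runx2 was called too in that comparison (0.62 ± 0.17, adjusted p = 0.0375). In DKO against Lyn-KO cells 0 members were called by limma and 1 had an unadjusted p under 0.05, where 0.163% of all features were called.

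With CpG-B, Irf5-KO cells had less of 5 members than WT cells, and all members called were lower. Klk1 was 8.82-fold lower in Irf5-KO than in WT cells (log2 change -3.14 ± 0.20, adjusted p = 1.15e-09), Ccr9 3.20-fold lower (-1.68 ± 0.14, adjusted p = 5.48e-08) and Lag3 2.09-fold lower (-1.06 ± 0.15, adjusted p = 2.02e-05). Spib and Tcf4 were lower by smaller amounts, -0.49 ± 0.08 (adjusted p = 0.000179) and -0.33 ± 0.09 (adjusted p = 0.00736). For each of these 5 genes the 3 Irf5-KO arrays lay below the 3 WT arrays. The second Tcf4 probe gave -0.24 ± 0.11 (adjusted p = 0.137). The count was 5 of 10 where 25.5% of all features were called, and the median change of the members was -0.20 beside 0.02 for all features. Runx2, Cox6a2, Ly6d, Siglech and Pacsin1 did not pass, with changes of 0.14 ± 0.20, -0.06 ± 0.10, -0.04 ± 0.10, 0.03 ± 0.12 and 0.00 ± 0.12.

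Lyn-KO cells had more of 6 members than WT cells with CpG-B, and all members called were higher. Klk1 was higher by 1.20 ± 0.20 (2.30-fold, adjusted p = 0.000136), Runx2 by 1.08 ± 0.20 (2.11-fold, adjusted p = 0.000573) and Ly6d by 0.97 ± 0.10 (1.96-fold, adjusted p = 6.74e-07). Spib was higher by 0.71 ± 0.08 (adjusted p = 3.05e-06), Tcf4 by 0.69 ± 0.09 (adjusted p = 7.8e-06) and Cox6a2 by 0.42 ± 0.10 (adjusted p = 0.00382). In each of the 6 the Lyn-KO arrays lay above the WT arrays. The count compares with 25.2% of all features called, and the median change was 0.56 beside 0.05 for all features. Ccr9 changed by 0.30 ± 0.14 and missed the threshold (adjusted p = 0.128), but was called with the slide as a block (adjusted p = 0.0147) and without WT replicate 1 (0.45, adjusted p = 0.0261). Lag3, Siglech and Pacsin1 changed by 0.15 ± 0.15, 0.24 ± 0.12 and 0.17 ± 0.12.

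DKO cells differed from WT cells in both directions. Against WT cells with CpG-B, Runx2, Ly6d, Cox6a2, Spib and Tcf4 were higher and Klk1, Ccr9 and Lag3 lower, 8 of 10 where 44.8% of all features were called. The median change of the members was 0.24, beside 0.06 for all features. Runx2 was 3.20-fold higher (1.68 ± 0.20, adjusted p = 1.73e-06), Ly6d 2.17-fold (1.11 ± 0.10, adjusted p = 2.86e-08) and Cox6a2 1.60-fold (0.68 ± 0.10, adjusted p = 1.63e-05). Klk1 was 3.91-fold lower (-1.97 ± 0.20, adjusted p = 1.44e-07), Ccr9 3.12-fold (-1.64 ± 0.14, adjusted p = 1.92e-08) and Lag3 2.11-fold (-1.08 ± 0.15, adjusted p = 6.42e-06). Spib was higher by 0.51 ± 0.08 (adjusted p = 4.23e-05). The rise of Tcf4, 0.24 ± 0.09 (adjusted p = 0.0315), lost its call without WT replicate 3 (0.17, adjusted p = 0.157), without DKO replicate 3 (0.18, adjusted p = 0.147) and with normexp (0.12, adjusted p = 0.26). It was also lost with quantile normalisation (0.13, adjusted p = 0.236) and median scaling (0.20, adjusted p = 0.0659). The same held with no filter on dim probes and with only the groups compared (adjusted p = 0.0774 and 0.0883). The second Tcf4 probe gave 0.31 ± 0.11 (adjusted p = 0.0296). Pacsin1 changed by 0.25 ± 0.12 (adjusted p = 0.0929, or 0.041 with the slide as a block).

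**Figure D4:**
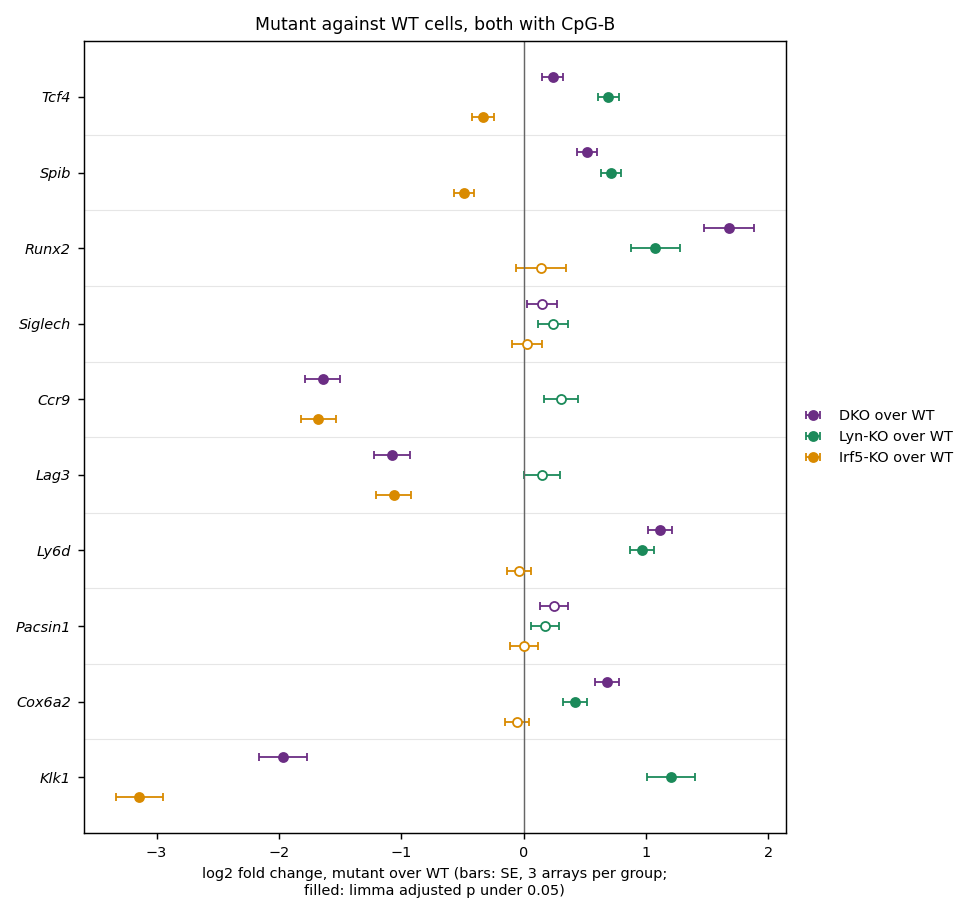
Log2 fold change of DKO, Lyn-KO and Irf5-KO cells over WT cells, all with CpG-B, for the 10 genes; points are fitted changes with SE from 3 arrays per group, and filled points have a limma adjusted p under 0.05. Klk1, Ccr9 and Lag3 are lower in DKO and Irf5-KO cells, and Runx2, Ly6d, Spib and Cox6a2 are higher in DKO and Lyn-KO cells.

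DKO cells were next set against each single mutant. Against Irf5-KO cells with CpG-B, DKO cells were higher in Runx2 (1.53 ± 0.20, adjusted p = 9.2e-06), Klk1 (1.17 ± 0.20, adjusted p = 0.000113), Ly6d (1.15 ± 0.10, adjusted p = 4.5e-08), Spib (1.00 ± 0.08, adjusted p = 2.73e-08), Cox6a2 (0.74 ± 0.10, adjusted p = 1.15e-05) and Tcf4 (0.57 ± 0.09, adjusted p = 4.07e-05), where 33.0% of all features were called. These are the 6 genes that were higher in Lyn-KO than in WT cells. The median change of the members was 0.65, beside 0.06 for all features. Ccr9 and Lag3 differed by 0.03 ± 0.14 (95% interval -0.26 to 0.33) and -0.01 ± 0.15 (95% interval -0.32 to 0.29).

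Against Lyn-KO cells with CpG-B, DKO cells were lower in Klk1 (-3.17 ± 0.20, adjusted p = 5.95e-10), Ccr9 (-1.95 ± 0.14, adjusted p = 4.53e-09), Lag3 (-1.23 ± 0.15, adjusted p = 2.42e-06) and Tcf4 (-0.45 ± 0.09, adjusted p = 0.000431) and higher in Runx2 (0.60 ± 0.20, adjusted p = 0.0299), where 31.5% of all features were called. The second Tcf4 probe gave -0.23 ± 0.11 (adjusted p = 0.143). The Runx2 call was lost without DKO replicate 1 or 2 or Lyn-KO replicate 2 or 3, at changes of 0.55, 0.58, 0.64 and 0.41 (adjusted p from 0.0507 to 0.167). With the slide as a block, Spib (-0.20 ± 0.07, adjusted p = 0.0283) and Cox6a2 (0.26 ± 0.09, adjusted p = 0.0306) were called too. Spib was also called with normexp (-0.31, adjusted p = 0.0147) and quantile normalisation (-0.295, adjusted p = 0.0108). Cox6a2 was also called with the trended robust fit, only probes detected on all arrays and the deposited table (adjusted p = 0.0409, 0.0448 and 0.0489). Without DKO replicate 1 Cox6a2 was called as well (0.31, adjusted p = 0.0429). The effect of losing Lyn was then set side by side in cells without and with Irf5, a comparison added after the values were seen. Its difference was called for 0 members by limma and had an unadjusted p under 0.05 for 2, Spib (0.29 ± 0.12, adjusted p = 0.208) and Cox6a2 (0.32 ± 0.14, adjusted p = 0.273), where 3.61% of all features were called. The 95% interval of that difference for Klk1 was -0.61 to 0.55 and for Ly6d -0.11 to 0.47.

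The response to CpG-B itself differed between genotypes for several members, tested as the response of the mutant minus that of WT. The counts are of main probes, and the second probes of Siglech and Pacsin1 follow in the next paragraph. In Irf5-KO cells 4 responses were below those of WT cells, those of Klk1 (-2.22 ± 0.28, adjusted p = 1.92e-05), Ccr9 (-1.39 ± 0.20, adjusted p = 8.42e-05), Lag3 (-1.23 ± 0.21, adjusted p = 0.000395) and Spib (-0.63 ± 0.12, adjusted p = 0.00102), against 12.6% of all features. In Lyn-KO cells 4 responses were above those of WT cells, those of Klk1 (0.91 ± 0.28, adjusted p = 0.0402), Ly6d (0.74 ± 0.14, adjusted p = 0.0014), Spib (0.49 ± 0.12, adjusted p = 0.00961) and Tcf4 (0.43 ± 0.12, adjusted p = 0.0284), against 11.1% of all features. The calls of Klk1 and Tcf4 in that comparison ended on leaving out single arrays, 8 of them for Klk1, with values down to 0.72, and 4 of them for Tcf4, with values down to 0.33. The second Tcf4 probe gave 0.33 ± 0.16 (adjusted p = 0.232). With the slide as a block the smaller response of Lag3 in Lyn-KO cells was called as well (-0.55 ± 0.12, adjusted p = 0.006). In DKO cells 6 responses differed from WT, above it for Runx2 (1.21 ± 0.29, adjusted p = 0.00331), Ly6d (1.02 ± 0.14, adjusted p = 1.49e-05) and Spib (0.45 ± 0.12, adjusted p = 0.00612) and below it for Ccr9 (-2.05 ± 0.20, adjusted p = 2.68e-07), Lag3 (-1.78 ± 0.21, adjusted p = 2.33e-06) and Klk1 (-1.70 ± 0.28, adjusted p = 0.000109), against 30.5% of all features. The call of Spib in DKO cells was lost with quantile normalisation (0.32, adjusted p = 0.0519). The WT arrays enter all 3 of these differences, so the 3 share their controls.

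On the second probes of Siglech and Pacsin1 the genotypes also differed. The second Siglech probe was higher by 1.06 ± 0.13 in DKO and 0.72 ± 0.13 in Lyn-KO cells than in WT cells with CpG-B (adjusted p = 1.5e-06 and 0.000314), and by 0.55 ± 0.13 and 0.48 ± 0.13 without it (adjusted p = 0.0127 and 0.0357). In Irf5-KO cells with CpG-B it differed from WT cells by 0.09 ± 0.13 (adjusted p = 0.694). On this probe DKO cells with CpG-B exceeded Irf5-KO cells by 0.97 ± 0.13 (adjusted p = 8.27e-06). They exceeded Lyn-KO cells by 0.34 ± 0.13 (adjusted p = 0.0497). The second Pacsin1 probe was higher than in WT cells with CpG-B by 1.30 ± 0.12 in DKO, 0.48 ± 0.12 in Lyn-KO and 0.46 ± 0.12 in Irf5-KO cells (adjusted p = 6.48e-08, 0.00622 and 0.00873). Unstimulated, this probe was higher than in WT cells by 0.66 ± 0.12 in DKO and 0.61 ± 0.12 in Lyn-KO cells (adjusted p = 0.00197 and 0.00507). In unstimulated Irf5-KO cells it differed by -0.03 ± 0.12 (adjusted p = 0.986). DKO cells with CpG-B exceeded Irf5-KO cells by 0.84 ± 0.12 and Lyn-KO cells by 0.81 ± 0.12 on it (adjusted p = 2.52e-05 and 3.53e-05). The CpG-B response of DKO minus that of WT cells was 0.52 ± 0.18 on the second Siglech probe (adjusted p = 0.0359). On the second Pacsin1 probe it was 0.63 ± 0.17 (adjusted p = 0.00814). In Lyn-KO and Irf5-KO cells neither probe was called for this difference (adjusted p from 0.0719 to 0.829).

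Of 30 further genes listed for plasmacytoid dendritic cells, 27 were on the array by name and all 27 were tested. With CpG-B, 10 rose and 15 fell in DKO, 11 rose and 11 fell in Lyn-KO, 10 rose and 16 fell in Irf5-KO and 10 rose and 13 fell in WT cells. The share of all features called was 70.5%, 68.9%, 66.8% and 68.5% in the same order. Among those that rose in WT cells were Irf7, the master factor of type I interferon induction, by 5.90 ± 0.20 (adjusted p = 4.12e-15), Bst2, the surface antigen known as tetherin, by 1.63 ± 0.08, the factors Bcl11a and Zeb2 by 1.41 ± 0.10 and 0.92 ± 0.08, and the nucleic acid sensors Tlr7 and Tlr9 by 1.27 ± 0.08 and 0.44 ± 0.06. Among those that fell were Atp1b1, a sodium pump subunit, by 4.13 ± 0.14, Ptprs, a receptor phosphatase, by 2.69 ± 0.07, and the factor Irf8 by 0.76 ± 0.09 (adjusted p = 4.44e-07).

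Between genotypes with CpG-B, 14 of the 27 were higher and 6 lower in DKO than in WT cells. In Lyn-KO cells 16 were higher and 3 lower than in WT cells, and in Irf5-KO cells 6 were higher and 10 lower. The share of all features called was 44.8%, 25.2% and 25.5% in the same order. The median change of the 27 was 0.26, 0.27 and -0.06, beside 0.06, 0.05 and 0.02 for all features. Irf8, which dendritic progenitors need, differed from WT in opposite directions in the 2 single mutants. With CpG-B it read 6.85, 6.92 and 6.91 in DKO, 7.58, 7.47 and 7.57 in Lyn-KO, 5.39, 5.02 and 5.30 in Irf5-KO and 6.94, 6.74 and 6.53 in WT cells. The Irf5-KO arrays lay lowest and the Lyn-KO arrays highest, a change against WT of -1.50 ± 0.09 (adjusted p = 8.11e-10) and 0.81 ± 0.09 (adjusted p = 2.42e-06). Irf7 with CpG-B differed from WT by 0.19 ± 0.20 in DKO, 0.01 ± 0.20 in Lyn-KO and 0.01 ± 0.20 in Irf5-KO cells (adjusted p = 0.47, 0.974 and 0.983). Tlr9 was higher than in WT cells by 0.22 ± 0.06 in DKO and 0.23 ± 0.06 in Lyn-KO cells and differed by -0.02 ± 0.06 in Irf5-KO cells (adjusted p = 0.884).

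Without stimulation, 8 of the 27 were higher and 1 lower in DKO than in WT cells, 6 higher in Lyn-KO than in WT cells, and 11 higher in DKO than in Irf5-KO cells, with none called lower in the last 2 comparisons. Shares of all features called were 6.78%, 4.58% and 5.35% in the same order. In Irf5-KO against WT cells 0 were called by limma and 8 had an unadjusted p under 0.05, where 0.737% of all features were called. Bst2, Lair1, Lifr, Mctp2, Ptprs and Upb1 were the 6 that were higher in Lyn-KO cells, by 0.28 for Ptprs to 0.68 for Upb1. The effect of losing Lyn with CpG-B differed by Irf5 status for 4 of the 27, Irf8 (0.85 ± 0.13, adjusted p = 0.000931), Smim5 (0.83 ± 0.15), Lair1 (0.62 ± 0.15) and Rpgrip1 (-0.49 ± 0.09). The share of all features called there was 3.61%.

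B lineage cells share Ly6d, Spib, Tcf4, Bcl11a and Blnk with plasmacytoid dendritic cells, so their own markers are given beside these genes. Of 13 tested B lineage markers, 10 were lower in DKO and 8 in Lyn-KO than in WT cells with CpG-B, and 5 were higher in Irf5-KO cells, with no call in the other direction in any of the 3 comparisons. These stand beside 44.8%, 25.2% and 25.5% of all features called, in the same order. Their summed signal, in units of the 75th percentile of the array, was 16.4 to 18.0 in DKO, 24.5 to 26.2 in Lyn-KO, 100 to 129 in Irf5-KO and 70.0 to 92.8 in WT cells with CpG-B, and 10.9 to 16.6, 11.9 to 12.6, 129 to 163 and 83.4 to 127 in the same genotypes unstimulated. The B cell antigen Cd79a was not well above background on any DKO or Lyn-KO array with CpG-B and Pax5, the B lineage factor, on any unstimulated DKO or Lyn-KO array. With CpG-B, Tcf4, Spib and Ly6d were higher in Lyn-KO than in WT cells. In Irf5-KO cells Tcf4 and Spib were lower than in WT cells, and Ly6d was not called. The part of B lineage cells in these values was not tested. With CpG-B against unstimulated, 4 of the 13 rose and 2 fell in DKO, 7 rose and 2 fell in Lyn-KO, 1 rose and 6 fell in Irf5-KO and 1 rose and 6 fell in WT cells. All-feature shares were 70.5%, 68.9%, 66.8% and 68.5% in the same order. Unstimulated, 12 of the 13 were lower in DKO and 11 in Lyn-KO than in WT cells, against 6.78% and 4.58% of all features called. In those unstimulated DKO and Lyn-KO cells 10 and 9 of the 13 were well above background on all 3 arrays. Responses of the others there start near background. For 4 of the 13 the response was above that of WT in DKO cells, and for 4 in Lyn-KO cells. Responses of Spib and Ly6d were above WT in both, and that of Tcf4 in Lyn-KO cells, all from levels far above background. The difference of response was called for 30.5% of all features in DKO and 11.1% in Lyn-KO cells.

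Markers of conventional dendritic cells moved with stimulation too. Of 8 tested type 2 markers, 5 fell and 2 rose with CpG-B in each genotype, and of 7 type 1 markers 3 fell in DKO, 5 in Lyn-KO, 5 in Irf5-KO and 6 in WT cells while 1 rose, Batf3. The share of all features called with CpG-B was 70.5% in DKO, 68.9% in Lyn-KO, 66.8% in Irf5-KO and 68.5% in WT cells. With most of the array called, these counts by themselves are not a result about the markers. The summed signal of the type 1 markers was 100 to 109 in DKO, 114 to 121 in Lyn-KO, 99.5 to 106 in Irf5-KO and 116 to 119 in WT cells with CpG-B, and 297 to 345, 257 to 310, 298 to 316 and 282 to 327 in the same genotypes unstimulated. Id2, the antagonist of Tcf4, fell by 0.33 ± 0.11 in DKO, 0.64 ± 0.11 in Lyn-KO, 1.05 ± 0.11 in Irf5-KO and 1.12 ± 0.11 in WT cells with CpG-B. Lag3 is shared with T and NK cells, of which 9 markers were listed and 4 tested, the others, Ncr1 and Klrb1c among them, being absent by name or dim. With CpG-B the granzyme Gzma rose and the T cell receptor subunit Cd3g fell in all 4 genotypes, Cd3e rose in Lyn-KO cells, Il2rb rose in Irf5-KO cells, and the other values did not pass. Cd3g was not well above background on any array with CpG-B, and Gzma on any unstimulated DKO, Lyn-KO or Irf5-KO array. The summed signal of the 4 was 1.58 to 2.12 in DKO, 1.74 to 2.25 in Lyn-KO, 1.72 to 1.90 in Irf5-KO and 1.79 to 2.05 in WT cells with CpG-B, and 1.63 to 1.75, 1.48 to 1.95, 1.79 to 1.95 and 1.70 to 1.81 in the same genotypes unstimulated. Of 6 monocyte and macrophage markers, 2 were higher in DKO and 4 in Irf5-KO than in WT cells with CpG-B, while 1 was lower in Lyn-KO cells. The shares of all features called in these comparisons were 44.8%, 25.5% and 25.2% in the same order. The part of these other cells in the changes of the members was not tested.

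For each member the named genes with the most similar pattern were found by Pearson's r over the 24 arrays, a description with no test over arrays that share 2 conditions and 4 genotypes. Tcf4 was most like Gdap1l1 (0.981), Mfhas1 (0.979) and Ppfia3 (0.977), and Ly6d was most like Blnk (0.983), an adaptor of the B cell receptor, Ern1 (0.979) and Fam169b (0.975). Spib was most like Ppp1r11 (0.964), Ccr9 most like Fuca2 (0.972), Cox6a2 most like Atp13a2 (0.978), Runx2 most like Adi1 (0.957) and Lag3 most like Stx7 (0.950). For the main probes of Siglech and Pacsin1 the nearest genes were Dnajc5 (0.940) and Slc45a3 (0.872).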

How the data were processed

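Total RNA of 24 cultures was hybridised in 1 colour, 3 arrays per group. Spot intensities are processed signals of Agilent Feature Extraction 10.7.3.1 (design annotated to mm9), per the file headers. A series table of log2 values deposited by the authors differed from those computed here by at most 0.0143 for 95% of 20192 probes, and served as an alternative. No source used here says how that table was made.

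Control spots were left out, as were 4351 spot values marked as outliers in the files, spots of a probe were averaged, and log2 of the processed signal minus the 75th percentile of each array was used. Probes were kept where 1 or more groups had all 3 arrays well above background, with the brightest on average per gene, which left 20209 features (12648 named, through accessions matched to the RefSeq gene table of GRCm38.p6). All 8 groups were fitted with limma 3.58.1 (lmFit, eBayes, R 4.3.3), with Benjamini-Hochberg adjustment over all features in each comparison and a threshold of 0.05. Errors of changes are SE. Tables and figures were made with Python 3.11.15, pandas 2.3.3, numpy 2.4.6 and matplotlib 3.10.9. The fit was tested on simulated data.

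All 10 members were named, with the other listed genes by their counts and a few examples, and for each member the 3 named genes with the highest Pearson r. The members and lists were chosen with earlier results of these data known. A fold against a probe at background was taken against the smallest well-measured signal of each array and given as an approximate lower bound.

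Alternatives were quantile normalisation, normexp (offset 50, on the median signal), median scaling, other filters on dim probes, each probe, the slide as a block, the groups of a comparison alone, the deposited table, a trended robust fit and leaving out each array. The other probe of the 4 members with 2 probes, and the comparison of Lyn loss by Irf5 status, were chosen after seeing the data. Replicate numbers equal slides. Arrays with the same number deviated together, with every correlation over 0.1, for the CpG-B comparisons in Lyn-KO (0.139 to 0.281), Irf5-KO (0.132 to 0.192) and WT cells (0.142 to 0.214), and not in the other comparisons of 2 groups. The labels say biological triplicates but not whether these are separate animals. The p-values set each difference of means against the spread within groups, pooled over the 8 groups and moderated over features. They hold for these samples, and the spread between animals is not known. The number of arrays limits the precision.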

Additional observations from a re-analysis of the deposited data

Results flagged for a closer look

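On the main probes of the 10 genes, the CpG-B response of a mutant differed from that of WT in 14 cases. Each was called by the limma test of the difference itself. The share of all features called in the same test was 30.5% for DKO, 11.1% for Lyn-KO and 12.6% for Irf5-KO cells. In DKO cells the difference was 1.21 (adjusted p = 0.00331) for Runx2, 1.02 (adjusted p = 1.49e-05) for Ly6d, 0.45 (adjusted p = 0.00612) for Spib, -1.70 (adjusted p = 0.000109) for Klk1, -1.78 (adjusted p = 2.33e-06) for Lag3 and -2.05 (adjusted p = 2.68e-07) for Ccr9. In Lyn-KO cells it was 0.91 (adjusted p = 0.0402) for Klk1, 0.74 (adjusted p = 0.0014) for Ly6d, 0.49 (adjusted p = 0.00961) for Spib and 0.43 (adjusted p = 0.0284) for Tcf4. In Irf5-KO cells it was -0.63 (adjusted p = 0.00102) for Spib, -1.23 (adjusted p = 0.000395) for Lag3, -1.39 (adjusted p = 8.42e-05) for Ccr9 and -2.22 (adjusted p = 1.92e-05) for Klk1. All values are log2 differences, mutant response minus WT response, and they share the WT arrays. The Lyn-KO calls of Klk1 and Tcf4 were lost on leaving out single arrays. Both were also lost with no filter on dim probes and with only the groups compared. With normexp the Klk1 call was lost (adjusted p = 0.0671), and the second Tcf4 probe gave no call (adjusted p = 0.232). The DKO call of Spib was lost with quantile normalisation (adjusted p = 0.0519).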

How the results depend on the processing

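Of 80 calls for the members, 66 kept their direction and side of the threshold under every alternative run, 8 were lost on leaving out 1 array, and 1 called value reversed. Values that reversed are log2 changes. With the other probe, Siglech read -1.04 in DKO, -1.32 in Lyn-KO, -1.46 in Irf5-KO and -1.56 in WT cells with CpG-B over unstimulated, and 0.34 in DKO against Lyn-KO cells with CpG-B. Pacsin1 in DKO cells with CpG-B read -0.56 with the other probe, -0.31 with normexp and -0.31 with quantile normalisation, and with the other probe 0.66 in unstimulated DKO against WT and 0.70 against Irf5-KO cells. Runx2 in DKO against Lyn-KO cells with CpG-B read -0.071 with the other probe, which was at background there. The cause was not tested.

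Counts of members called moved by over 1.5 times as follows. With the other probe there were 8 with CpG-B in DKO cells (5 otherwise), and without stimulation 4 in DKO against WT (2), 5 in DKO against Irf5-KO (3) and 4 in Lyn-KO against WT cells (2). With only the groups compared, unstimulated DKO against WT gave 1. With no filter on dim probes, with normexp and with only the groups compared, unstimulated Lyn-KO against WT gave 1 and Irf5-KO against WT 0 (1 otherwise). With the slide as a replicate block unstimulated Lyn-KO against WT gave 4, and the block ended no call. The Lyn-KO response differed from WT in 2 members (4 otherwise) with no filter on dim probes and with only the groups compared. Leaving out 1 array gave 0 to 1 members in unstimulated Irf5-KO against WT, 1 to 2 in Lyn-KO against WT, and 2 to 4 for the Lyn-KO response. Genes near background, such as Runx2 on its second probe, are limited to approximate lower bounds.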

Other observations

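Markers of other cell types in the cultures also changed with CpG-B. The share of all features called was 70.5% in DKO, 68.9% in Lyn-KO, 66.8% in Irf5-KO and 68.5% in WT cells. The counts that follow are therefore not by themselves a result about these markers. Of 8 tested neutrophil markers, 6 fell and 1, Elane, rose in DKO cells, while 7 fell in Lyn-KO, 4 in Irf5-KO and 6 in WT cells, and their summed signal, in units of the 75th percentile of the array, was 22.3 to 52.3 in DKO, 40.0 to 45.3 in Lyn-KO, 48.5 to 67.1 in Irf5-KO and 60.8 to 67.3 in WT cells with CpG-B, against 41.2 to 84.8, 78.3 to 98.2, 80.0 to 103 and 96.5 to 120 in the same genotypes unstimulated. Of 6 tested monocyte and macrophage markers, 3 rose and 3 fell in DKO, 2 rose and 3 fell in Lyn-KO, 2 rose and 3 fell in Irf5-KO and 2 rose and 4 fell in WT cells with CpG-B.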
